A study of Mus musculus with 6 samples.

Results

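Alpha tubulin is one of the pair of proteins that polymerise into microtubules, and the mouse makes it from several closely related genes. The genes considered here were the testis copies Tuba3a and Tuba3b, which are active in male germ cells, and the somatic copies Tuba1a, Tuba1b, Tuba1c, Tuba4a and Tuba8. They were chosen from their gene symbols, with the testis copies picked because their values in an earlier look at these libraries differed between the groups. Of the 7 listed genes 6 had values, among 14162 genes in all, and Tuba8 was not analysed here. Because the choice used the comparison of Dnmt1KO with WT, the differences of these 6 genes are given as a description without a test.

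The libraries were RNA-seq of whole lungs from mouse embryos at E12.5. The 3 called Dnmt1KO carried the ShhCre-Dnmt1KO genotype, a deletion of the maintenance DNA methyltransferase gene Dnmt1 by Cre made from the Shh locus. In the lung this locus is known to be active in the endoderm-derived epithelium. Dnmt1 was not measured by cell type here. The 3 called WT came from wild-type littermates, so the Cre allele was named for the Dnmt1KO group alone and its effect cannot be told apart from that of the deletion. Whether the libraries came from separate embryos is not said in the labels, so spreads and p-values refer to these libraries and may be technical.

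The deposited log2 values could be turned back into whole reads, with between 18192629 and 25597662 reads per library over the listed genes. Dnmt1 stood at 15.43 ± 0.13 in Dnmt1KO and 15.74 ± 0.02 in WT (SD, n = 3), with no overlap between the groups and an exact two-sided permutation p of 0.1, the smallest that this design allows. Fitted with all genes by limma, the difference had an adjusted p of 0.507. All 10 lung markers were measured, among them Nkx2-1, Epcam, Tbx4 and Foxf1. None passed limma's test, near the 0.29% of all genes that did, and 4 of the 10 log2 differences were above 0 (median -0.15). An unadjusted limma p under 0.05 was seen for 2 of them, against 4.52% of all genes. These were Foxf1 (-0.38 ± 0.09 SE), lower without overlap of the groups, and Foxa2 (-0.42 ± 0.18). Reads of the Y-linked genes Ddx3y, Eif2s3y, Kdm5d and Uty came to 3 in Dnmt1KO replicate 1 and to between 4155 and 5207 in every other library. Dnmt1KO replicate 1 was thus other material than Dnmt1KO replicates 2 and 3, so the spread of that group is not technical alone. For the remaining libraries this cannot be told.

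In most tissues the bulk of alpha tubulin comes from the Tuba1 genes, with Tuba1a the main form of developing neurons and Tuba1b a widely expressed form. Tuba4a is a form of mature tissue and platelets. Tuba3a and Tuba3b encode the same protein and are kept silent outside the germ line, where promoter methylation and the repressor E2F6 are both known to act on germ cell genes. The alpha tubulins differ most in their acidic carboxy-terminal tails, which extend from the microtubule surface and are altered by enzymes that remove and restore a final tyrosine.

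The ends of the coding sequences show how alike the copies are. Each line gives the last 60 coding bases up to and including the stop codon, 5′ to 3′, from the GENCODE M21 transcripts (GRCm38). Capitals mark bases that differ from Tuba3b when the sequences are lined up at the stop codon without gaps.
Tuba3b: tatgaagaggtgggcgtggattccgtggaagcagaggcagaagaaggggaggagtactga
Tuba3a: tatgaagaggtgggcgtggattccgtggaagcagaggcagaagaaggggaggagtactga
Tuba1c: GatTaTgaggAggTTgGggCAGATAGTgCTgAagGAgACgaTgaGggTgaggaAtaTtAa
Tuba4a: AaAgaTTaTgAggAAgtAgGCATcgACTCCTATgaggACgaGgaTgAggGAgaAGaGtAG

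Tuba3a did not differ from Tuba3b at any of these 60 bases, whereas Tuba1c differed at 28 and Tuba4a at 33. Tuba4a is known for lacking the encoded final tyrosine that the others shown here have. Over the whole coding sequence Tuba3a and Tuba3b were 97.0% identical, with 41 differing bases among 1353. Either testis copy was between 82.9% and 85.2% identical to Tuba1a, Tuba1b, Tuba1c or Tuba4a. The Tuba1 genes were between 97.6% and 98.4% identical to each other.

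This likeness limits how reads can be divided among the copies. Of all 50-base windows of the Tuba3a transcript, 32.4% also occurred in a Tuba3b transcript, and the share was 12.3% for 100-base windows. No Tuba3a or Tuba3b window of 50 bases occurred in a transcript of Tuba1a, Tuba1b, Tuba1c or Tuba4a. Some windows of either copy did occur in other genes, among them Gm5366 and Tuba8. At 100 bases Tuba3b still shared windows with Gm5366. For Tuba1b, 59.3% of 50-base windows also occurred in Tuba1c. Of the longest complete Tuba4a transcript, 47.7% of 50-base windows also occurred in transcripts of Stk16, a kinase gene that overlaps it. Neither the read length nor the treatment of reads with several matches is given in the sources used here, so the separate values of Tuba3a and Tuba3b, of the 3 Tuba1 genes, and of Tuba4a are uncertain to that extent.

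The testis copies were close to silent in WT lungs and clearly expressed in Dnmt1KO lungs. Tuba3a had 245, 192 and 628 reads in Dnmt1KO replicates 1, 2 and 3, against 4, 5 and 3 in WT replicates 1, 2 and 3. For Tuba3b the same libraries gave 384, 198 and 1114 reads with the deletion, against 1, 0 and 1 without it. For both genes the lowest Dnmt1KO library lay far above the highest WT library. Over all genes, 4.79% had every Dnmt1KO library above every WT library, and 8.78% had groups that did not overlap in either direction. Nothing is read from these shares, since the pair was picked from this contrast.

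Dnmt1KO replicate 3 was the highest and replicate 2 the lowest for both copies. The deposited log2 values of Tuba3a were 10.42, 9.93 and 11.57 in Dnmt1KO and 4.17, 4.80 and 3.95 in WT. Their difference was 6.34 ± 0.45 (SE). Tuba3b was at 11.07, 9.97 and 12.40 against 2.58, 1.34 and 2.72, a difference of 8.93 ± 0.65. The WT value of 1.34 is that of 0 reads, where an upper limit of 3 reads holds by counting error, so the fold change of Tuba3b depends on the offset of 0.5 reads in the deposited values.

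Counting the pair as 1 unit removes the question of how reads were divided between them, though not that of reads shared with other genes such as Gm5366. Their summed reads were 629, 390 and 1742 with the deletion, where WT gave 5, 5 and 4. The ratio of scaled reads was 228, with an exact Clopper-Pearson 95% interval of 136 to 418 that covers counting error only. The log2 difference of the sum was 7.40 ± 0.62 (SE, n = 3 each). The 3 Dnmt1KO libraries spanned 5.36-fold in scaled Tuba3b and 3.12-fold in Tuba3a, a wider spread than that of any measured somatic copy. In the same libraries Tuba1a spanned 1.10-fold, Tuba1b 1.25-fold, Tuba4a 1.37-fold and Tuba1c 1.58-fold.

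**Figure D1:**
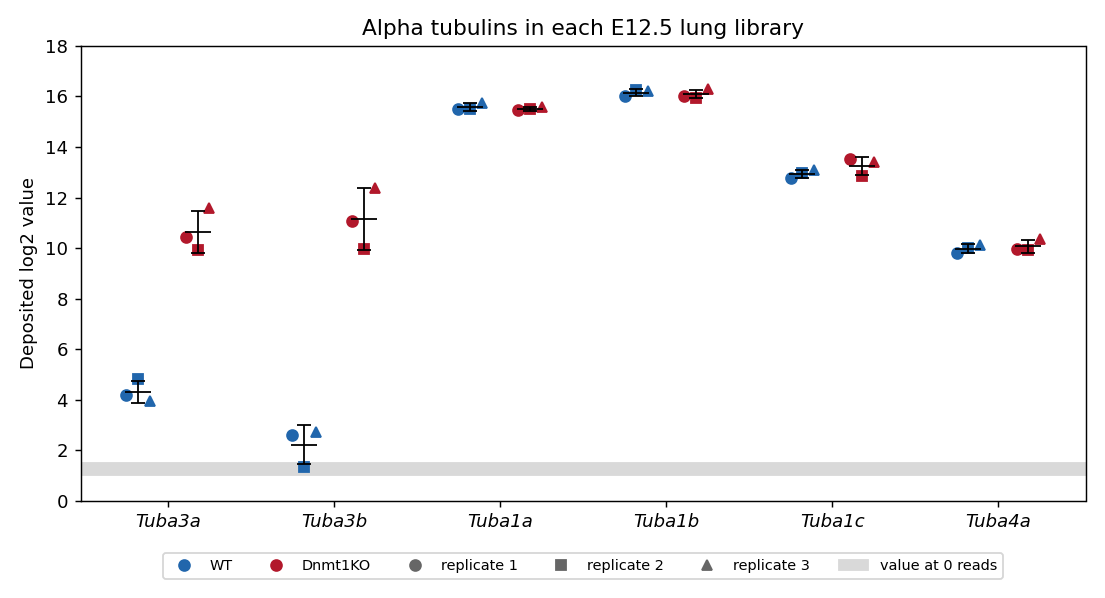
Deposited log2 values of the 6 alpha tubulins in the WT (blue) and Dnmt1KO (red) libraries, with a marker shape for each replicate number, bars for the mean and SD of 3 libraries, and a grey band for the value that 0 reads takes. Tuba3a and Tuba3b sit near the band in WT and between 9.93 and 12.40 in Dnmt1KO, while the groups overlap for the other 4 genes.

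The somatic copies had similar levels in both groups. Tuba1b, the most abundant alpha tubulin of these lungs, was at 16.04, 15.96 and 16.28 in Dnmt1KO and 16.01, 16.25 and 16.20 in WT, a log2 difference of -0.061 ± 0.108 (SE). Tuba1a was at 15.45, 15.49 and 15.59 against 15.48, 15.49 and 15.75, a difference of -0.064 ± 0.096. The groups overlapped for both, and the sign of Tuba1a turned without WT replicate 3 (0.025), as did that of Tuba1b without Dnmt1KO replicate 2 (0.0053). Tuba4a was at 9.95, 9.91 and 10.37 against 9.80, 10.02 and 10.12, a difference of 0.097 ± 0.171, which was -0.049 without Dnmt1KO replicate 3.

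Tuba1c, a minor form of the Tuba1 cluster, differed most among the somatic copies. Its Dnmt1KO values were 13.51, 12.85 and 13.40 and its WT values 12.78, 12.95 and 13.09, a difference of 0.31 ± 0.17 (SE). Replicates 1 and 3 of Dnmt1KO lay above all WT libraries and replicate 2 lay among them. Leaving out Dnmt1KO replicate 2 gave 0.51, and leaving out Dnmt1KO replicate 1 gave 0.18. Summed over Tuba1a, Tuba1b and Tuba1c, so that reads exchanged within the cluster do not matter, the difference was -0.036 ± 0.101.

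Levels of different genes were compared as RPKM, the recovered reads per kilobase of transcript scaled to the total reads of each library. In WT the order was Tuba1b at 407 ± 33, Tuba1a at 264 ± 31, Tuba1c at 38.7 ± 4.2, Tuba4a at 3.46 ± 0.39, Tuba3a at 0.117 ± 0.039 and Tuba3b at 0.0154 ± 0.0134 RPKM (SD, n = 3). In Dnmt1KO Tuba1b, Tuba1a and Tuba1c kept the first 3 places, at 395 ± 47, 255 ± 13 and 49.3 ± 11.3 RPKM. Tuba3b at 15.8 ± 12.6 RPKM and Tuba3a at 11.7 ± 7.1 RPKM came next, and these neighbours did not differ beyond their spread. Tuba4a was last at 3.77 ± 0.70 RPKM, below either testis copy in each Dnmt1KO library. Per kilobase of coding sequence that order also held, but in Dnmt1KO replicate 2 the 3 genes lay close, with 7.01 for Tuba4a, 7.05 for Tuba3a and 7.27 for Tuba3b.

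The share of the testis copies among all alpha tubulin reads needs no scaling between libraries. It was 2.74% (exact Clopper-Pearson 95% interval 2.54 to 2.96), 1.65% (1.49 to 1.82) and 5.64% (5.39 to 5.90) in Dnmt1KO replicates 1, 2 and 3. In WT it was 0.0167% (0.00543 to 0.0390), 0.0191% (0.00619 to 0.0445) and 0.0126% (0.00342 to 0.0321). The Dnmt1KO intervals did not overlap each other or those of WT, so the libraries of the Dnmt1KO group differed among themselves by more than counting error. Tuba1b made up between 52.4% and 58.6% of alpha tubulin reads in every library. In whole tissue, a share of this kind cannot separate few cells with many transcripts from many cells with few.

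The balance within the pair also varied. Tuba3b took 61.0% of the reads of both testis copies in Dnmt1KO replicate 1 (exact Clopper-Pearson interval 57.1 to 64.9), 50.8% in replicate 2 (45.7 to 55.8) and 63.9% in replicate 3 (61.6 to 66.2). Replicate 2 thus stood below the other two by more than counting error. Per base of transcript there were 1.33, 0.877 and 1.51 Tuba3b reads for each Tuba3a read in these libraries. In WT, 2 of the 14 reads on the pair were assigned to Tuba3b, too few for a ratio per library.

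**Figure D2:**
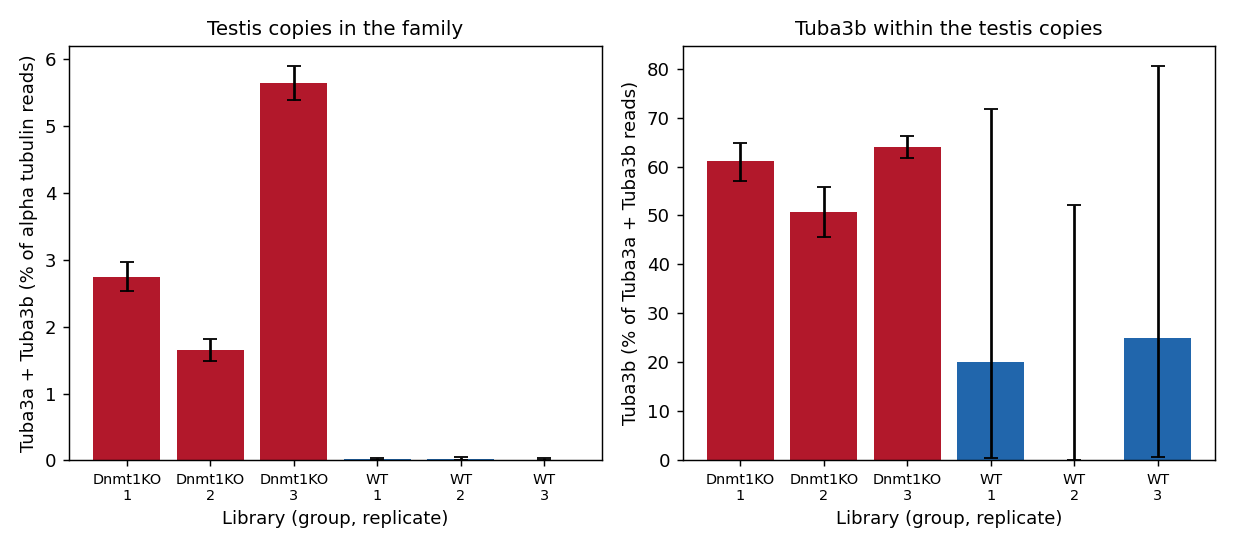
Left, reads of Tuba3a and Tuba3b as a percent of all alpha tubulin reads in each library; right, Tuba3b as a percent of the reads of both testis copies, with exact 95% counting intervals as error bars. The testis share is between 1.65% and 5.64% in Dnmt1KO and between 0.0126% and 0.0191% in WT, where the right panel rests on 4 or 5 reads per library.

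The order of the Dnmt1KO libraries in the testis copies was shared by 3 of the 10 lung markers, Epcam, Nkx2-1 and the cadherin gene Cdh1, and not by the other 7. Epcam, an epithelial adhesion gene, was at 13.85, 13.42 and 14.18 in Dnmt1KO replicates 1, 2 and 3, and Nkx2-1, the lung lineage factor, at 13.82, 13.48 and 14.09. Of the other epithelial markers, Sox2 was at 8.98, 11.10 and 11.33, Foxa2 at 11.33, 11.57 and 12.06 and Sox9 at 13.33, 12.94 and 12.88. The ranges of Epcam and Nkx2-1 were narrower than the 1.64 of Tuba3a and the 2.42 of Tuba3b on the log2 scale. The log2 of the summed scaled reads of all 10 lung markers was 16.98, 16.70 and 16.96 in Dnmt1KO and lay between 16.89 and 17.11 in WT. The log2 sum of 11 heart and skeletal muscle markers was 15.90 in Dnmt1KO replicate 2, the Dnmt1KO library with the fewest testis tubulin reads, and ranged from 13.47 to 14.06 in the other 5 libraries. Of these markers 7, among them the heart genes Myh6 and Myl7, were highest in that library. Myh7 and the skeletal muscle factors Myog and Myod1 were highest in WT replicate 1. Myh7 was at 9.88 there and at 8.79 in Dnmt1KO replicate 2. Des was highest in Dnmt1KO replicate 1, at 12.734 against 12.726 in Dnmt1KO replicate 2. The part of cell make-up in the spread of Tuba3a and Tuba3b was not tested. The library with almost no Y-linked reads, Dnmt1KO replicate 1, lay between the other Dnmt1KO libraries for both testis copies.

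Markers of germ cells and of the testis were read beside the pair. None of the 9 markers of late male germ cells, such as the protamine genes Prm1 and Prm2, was analysed here. Of 9 primordial germ cell markers 6 were measured and 1, the RNA-binding protein gene Dazl, passed limma's test as higher (adjusted p = 0.00346). Of all genes 0.282% passed as higher and 0.29% in either direction. Its reads were 437, 346 and 1055 in Dnmt1KO, in the same library order as the testis tubulins, while WT gave 0, 3 and 2. Ddx4, a helicase of germ cells, stood at 35, 49 and 89 reads where WT had 14, 20 and 37, and did not pass (limma adjusted p = 0.612). Scaled Ddx4 log2 values did not overlap, at 7.63, 7.97 and 8.76 in Dnmt1KO and 5.86, 6.70 and 7.37 in WT. Dazl and Ddx4 were thus the 2 of 6 markers that were higher without overlap, against 4.79% of all genes. The same 2 had an unadjusted limma p under 0.05, against 4.52% of all genes. Nothing is read from these counts or from the p of Dazl. Genes under 60 reads in total were not analysed, and Dazl had 5 reads in WT. It thus had values only through its Dnmt1KO reads, and the list was chosen with earlier results of these data known. Nanos3, Dnd1, Kit and Tfap2c also did not pass, with log2 differences between -0.11 and 0.32. The log2 of the list's summed scaled reads was 13.24, 13.09 and 13.30 in Dnmt1KO against 12.32, 12.18 and 12.41 in WT. Without Dazl it was 12.82, 12.77 and 12.28 against 12.32, 12.18 and 12.40, so that Dnmt1KO replicate 3 lay among the WT libraries. Most of this sum was Kit. Its log2 values were 12.64, 12.55 and 11.86 with the deletion, where WT stood at 12.02, 11.94 and 12.14. Among the Dnmt1KO libraries, replicate 3 was lowest for Kit and Tfap2c but highest for Ddx4, Nanos3 and Dnd1. The sum therefore says little about the markers other than Kit. All 5 measured markers of Sertoli cells and other testis soma, of 6 listed, did not pass either (median log2 difference 0.15, unadjusted p under 0.05 for 0 of them). The part of germ cells in the reads of Tuba3a and Tuba3b was not tested.

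Both testis copies lie on chromosome 6, at separate places. The 3 nearest measured genes on each side of either copy were taken from the RefSeq gene order. None of these 12 genes passed limma's test in either direction, as 0.29% of all genes did, so a count of 0 is near the background. An unadjusted p under 0.05 was seen for 2 of the 12 and for 4.52% of all genes, and voom on the recovered reads also called 0. Beside Tuba3a, the tumour necrosis factor receptor gene Tnfrsf1a (0.021 ± 0.105), the lymphotoxin receptor gene Ltbr (-0.080 ± 0.103) and the sodium channel gene Scnn1a (0.085 ± 0.209) were among 6 genes whose log2 differences lay between -0.13 and 0.085. Beside Tuba3b the 5 genes given here had a wider range, from -0.13 for Rassf8 to 1.78 for Lmntd1. Lmntd1 stood at 23, 30 and 8 reads where WT had 11, 4 and 4 (log2 difference 1.78 ± 0.65, limma adjusted p = 0.856). Bhlhe41, a clock repressor gene, had a log2 difference of 0.76 ± 0.31 without overlap of the groups (limma adjusted p = 1). The 6 nearest measured genes of Tuba8 on the same chromosome gave 0 calls as well, with none at an unadjusted p under 0.05.

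**Figure D3:**
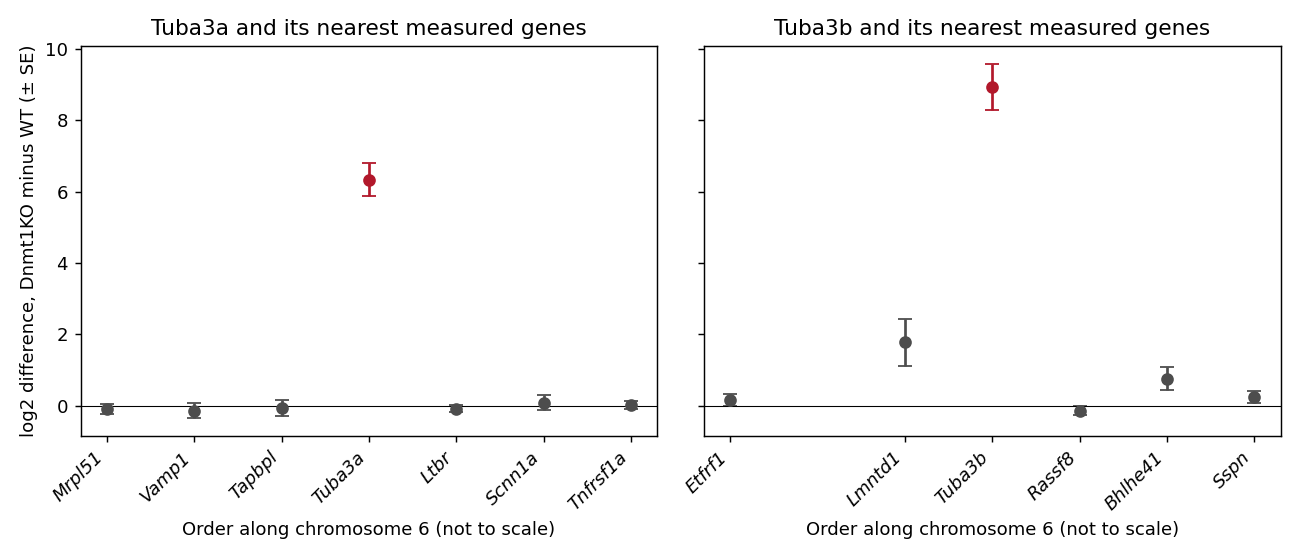
Log2 difference between Dnmt1KO and WT with its SE for Tuba3a, Tuba3b (red) and 11 of the nearest measured genes (grey), in their order along chromosome 6. The testis copies stand at 6.34 and 8.93 and the 11 neighbours shown between -0.13 and 1.78.

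The regions before the starts of Tuba3a and Tuba3b hold stretches found in both. They are shown as a description of the pair, and whether they have a part in its expression was not tested. The sequences are RefSeq promoter sequence of GRCm38.p6, 5′ to 3′ in the direction of the gene, with capitals for runs of at least 12 bases that are identical in the alignment of the pair. The Tuba3a window is chr6:125286140-125286223 on the minus strand, from 142 to 59 bases before the RefSeq start, and the Tuba3b window is chr6:145615834-145615917 on the plus strand, from 129 to 46 bases before it.
Tuba3a: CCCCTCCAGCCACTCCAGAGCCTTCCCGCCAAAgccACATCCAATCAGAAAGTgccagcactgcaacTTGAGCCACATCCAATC
Tuba3b: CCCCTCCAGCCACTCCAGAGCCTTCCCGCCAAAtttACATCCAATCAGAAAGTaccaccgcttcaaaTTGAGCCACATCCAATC

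The 3 shared runs were 33, 17 and 17 bases long, and no other of the 32851 RefSeq promoters held any of them on either strand. The first run contains TTCCCGCC, a sequence of the type that E2F proteins bind, and the other two each contain CCAATC, an extension of the CCAAT box bound by NF-Y. The E2F-type letters occurred on either strand in 1.86% of all promoters over the 250 bases before the start, and at least 2 matches to CCAATC in 2.40%. Both together occurred in 0.0487%, or 16 promoters. Counted by gene, 431 of the 10826 measured genes with a promoter held the E2F-type letters (3.98%). None of Tuba1a, Tuba1b, Tuba1c, Tuba4a and Tuba8 held the E2F-type letters in this window, and none of the 7 held the TATA box TATAAA. A match is a description of letters and not a binding site. The GENCODE annotation starts Tuba3b upstream of the RefSeq start, so the Tuba3b positions and CpG count refer to the RefSeq start only. These motifs were chosen after the sequences were seen.

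CpG sites, the letters at which DNA methylation mostly occurs, numbered 8 in the 250 bases before Tuba3a and 14 before Tuba3b, where the median promoter had 6. Tuba1b had 35, Tuba4a 20, Tuba1a 11, Tuba8 7 and Tuba1c 4. Methylation itself was not measured in these libraries.

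**Figure D4:**
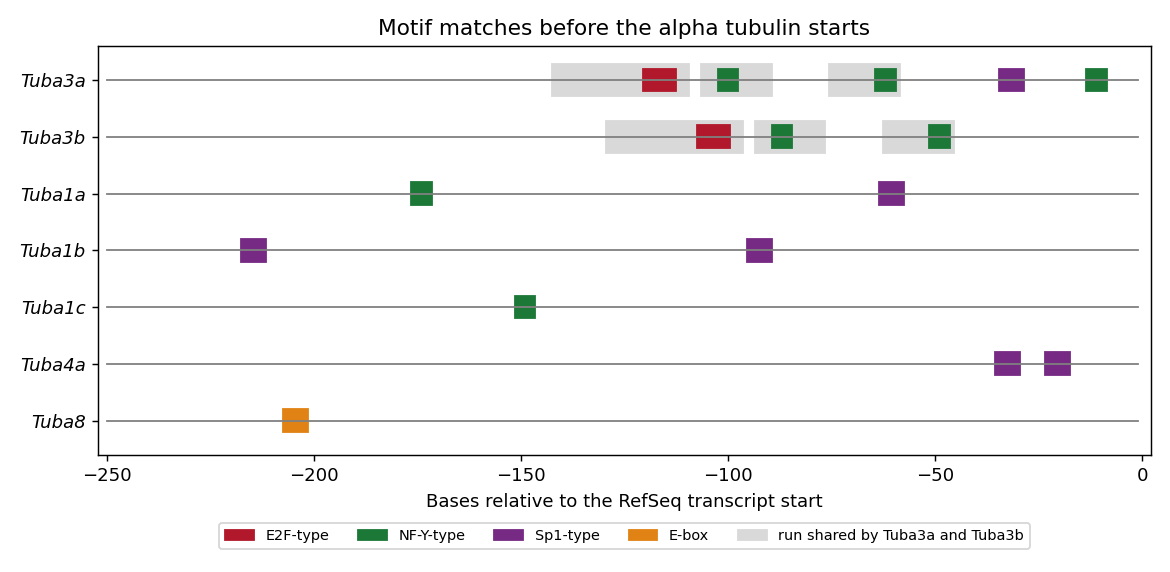
Matches to the E2F-type (red), NF-Y-type CCAAT (green), Sp1-type GC box (purple) and E-box (orange) letters in the 250 bases before the RefSeq start of each alpha tubulin gene, with the x axis in bases and grey blocks for the runs that Tuba3a and Tuba3b share. The testis copies alone show an E2F-type match, followed by 2 CCAAT matches in the same order and spacing, and Tuba3a has a further CCAAT match nearer its start.

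Several genes had a high correlation with the testis copies over the 6 libraries. By Pearson's r over the 6 deposited log2 values, the genes with a common symbol most like Tuba3a were Rpl39l, a testis form of a ribosomal protein (r = 0.998), Efcab3 (0.995), Cfap70, an axoneme gene (0.994), Tex19.1, a germline gene (0.993), and Cnbd2, needed for sperm formation (0.992). Rpl39l stood at 158, 115 and 258 reads where WT had 3, 3 and 2. For Tuba3b they were Layn, a hyaluronan receptor gene (0.996), Ppp1r3a, which directs a phosphatase to glycogen (0.994), the asparagine synthetase gene Asns (0.994), the X-linked germ cell gene Tex13b (0.994) and Efcab3 (0.993). The libraries fall into 2 groups that set most of these values. The measure ignores size, so Cnbd2 stood beside Tuba3a with a log2 difference of 0.60, and Layn and Asns beside Tuba3b with 0.58 and 0.44.

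The somatic copies had other companions. Tuba1a was most like the DNA repair gene Xpc (r = 0.995), Plin2 (0.994) and Cdk2ap1 (0.991), and Tuba1b most like Trim37 (0.993), Nsun2 (0.990) and G0s2 (0.989). Tuba1c was most like Aldh1l1 (0.993), Ppp1r3g (0.993) and Neil3 (0.989), and Tuba4a most like Copz1 (0.997), Tsn (0.995) and Lias (0.991). The groups overlapped for all 12 of these genes. They are the top of a ranking of all genes with a common symbol over 6 libraries, so nothing is read from them. Ppp1r3g had between 11 and 30 reads per library.

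None of the measured genes that work with alpha tubulin passed the test. In 4 lists with 93 genes, 82 were measured, and limma called 0 higher and 0 lower, where over all genes it called 0.282% higher and 0.00706% lower. With 0.29% called over all genes, a count of 0 is near the background. None had an unadjusted p under 0.05, against 4.52% of all genes, and voom on the recovered reads also called 0. Groups did not overlap for 1 gene as higher and for 5 as lower, against 4.79% and 3.99% of all genes. These included Tbce as higher and Tubg1, Ttl, Vash2 and the glutamylase gene Ttll11 as lower.

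Beta tubulins are the partners of alpha tubulin in the dimer. Of 12 measured other tubulins the median log2 difference was -0.031, against -5.9e-05 for all genes. Tubb5, a widely expressed beta tubulin, was at 17.62 ± 0.11 in Dnmt1KO and 17.64 ± 0.12 in WT (SD, n = 3). The smallest p belonged to Tubg1, a gamma tubulin that nucleates microtubules (-0.14 ± 0.08 SE), and to Tubb2b (-0.17 ± 0.12).

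The 22 measured folding genes, which include the CCT chaperonin and the cofactors that assemble the dimer, had a median of 0.0024. Tbce, the cofactor that acts on alpha tubulin, was at 0.15 ± 0.09 and Arl2, which works with the cofactors, at -0.14 ± 0.10 (log2 difference ± SE). Of 23 genes for tubulin modification the median was -0.067. The smallest p belonged to Ttl, the ligase that restores the final tyrosine (-0.20 ± 0.09), and Vash2, which helps to remove it (-0.15 ± 0.07), while the largest difference, that of the deglutamylase family gene Agbl2, was higher at 0.57 ± 0.33. The 25 genes of microtubule dynamics had a median of -0.0014, with Mapre3, an end-binding protein, at 0.24 ± 0.17.

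Markers of other cells in which single alpha tubulins are abundant gave no calls. Of 10 neuron, 11 muscle, 8 platelet, 5 multiciliated cell and 8 proliferation markers with values, limma called 0, near the 0.29% called over all genes. An unadjusted p under 0.05 was seen for the platelet lineage genes Itga2b (0.59 ± 0.21) and Nfe2 (0.58 ± 0.22) and the replication gene Mcm2 (-0.21 ± 0.08), as log2 differences ± SE. Over all genes 4.52% had such a p. Groups did not overlap for Itga2b, Nfe2 and the heart gene Tnni3 as higher and for Mcm2 as lower, against 4.79% and 3.99% of all genes. The log2 of summed neuron markers lay between 13.49 and 14.08 in Dnmt1KO and between 13.47 and 14.29 in WT. For platelet markers, with 7 of 8 differences above 0, it was 12.04, 12.96 and 12.33 in Dnmt1KO and lay between 12.09 and 12.16 in WT. For proliferation it lay between 18.18 and 18.32 in Dnmt1KO and between 18.14 and 18.36 in WT.

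**Figure D5:**
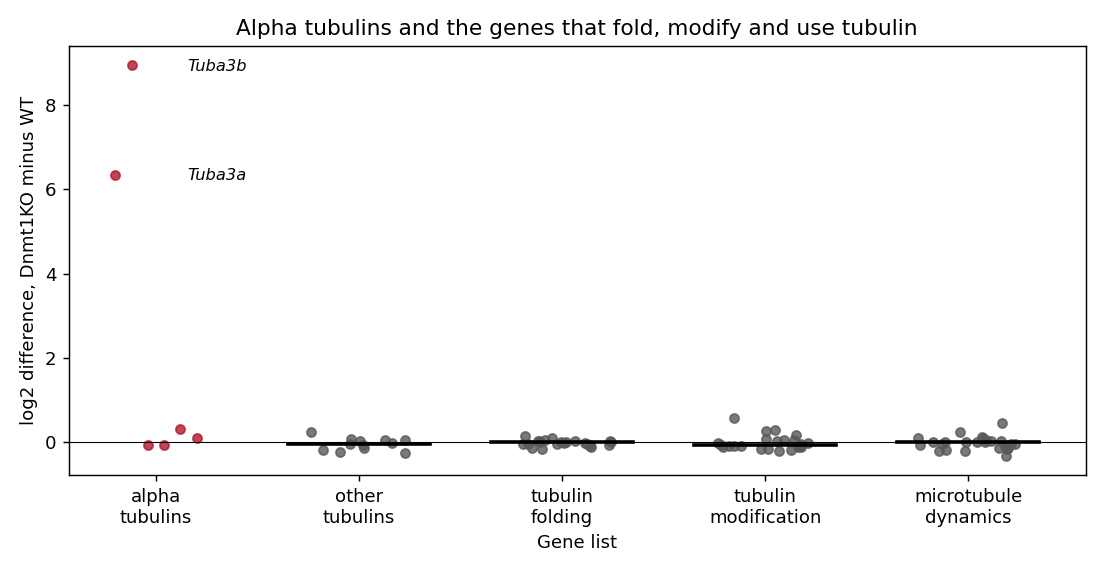
Log2 difference between Dnmt1KO and WT for each alpha tubulin (red) and for each measured gene of 4 lists (grey, with a bar at the median). Tuba3a and Tuba3b lie above 6 and all 82 genes of the lists lie between -0.31 and 0.57.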

How the data were processed

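RNA-seq of 6 lung libraries, 3 per genotype in the labels, was used. The authors deposited 1 value per gene and library, read as log2 from its range of 1 to 18.4; the file headers name it only as a signal. The submitters' processing notes name STAR, limma and mm9; no counter, annotation or gene filter is given in the sources used here. Raising 2 to each value gave whole reads plus 0.5 times a library constant for 100% of values (tolerance 1e-06 reads); their totals are the depths. Symbols matched 13967 of 14162 identifiers. Limma 3.58.1 (R 4.3.3) with trend and robust estimation was fitted to all genes with genotype as the only term, Benjamini-Hochberg adjustment and a threshold of 0.05; it was tested on simulated data. Alternatives were other scalings, offsets of 2 and 5 reads, removal of the lowest 25% of genes, sample weights, voom, the replicate block and leaving out each library.

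Lists and members were chosen with earlier results of these data known. Named were all members, genes past the test, otherwise the 2 with the smallest p per pathway list, the neighbours described, and the genes most alike; others, such as Epcam, Cdh1, Sox2, Foxa2, Sox9, Myh6, Myl7, Myog, Myod1, Nkx2-1, Tubb5, Ddx4, Ttll11, Agbl2, Itga2b, Nfe2 and Mcm2, were named after their values were seen. Some genes and sequences that this rule names are not reported here. Coding sequences are the longest complete ones per gene. Coordinates of GRCm38 were not combined with mm9.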

Additional observations from a re-analysis of the deposited data

How the results depend on the processing

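The testis copies remained higher in Dnmt1KO with the replicate block, with the other scalings and offsets and as each library was left out, while the size moved with the treatment of low reads. With quantile normalization the log2 difference was 5.55 for Tuba3a and 7.66 for Tuba3b; with an offset of 5 reads it was 5.34 and 6.51, and with an offset of 2 reads 7.60 for Tuba3b. Removing the lowest 25% of genes by mean value took out both testis copies and left the 4 somatic members. As each library was left out, Tuba3a ran from 5.87 to 6.69, Tuba3b from 8.31 to 9.52 and their sum from 6.84 to 7.89, and the mean share of the testis copies in Dnmt1KO from 2.19% to 4.19%, the lowest without Dnmt1KO replicate 3. Tuba1c moved from 0.31 to 0.51 without Dnmt1KO replicate 2, by more than its SE.

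Over all genes, 40 were called higher and 1 lower. With the replicate block the counts were 26 and 0, with voom 24 higher, with the lowest 25% of genes removed, which took out 37 of the 41 called genes, 0 and 0 (308 genes at an unadjusted p under 0.05), without trend and robust estimation 0 lower, and with sample weights 12 lower. Without single libraries they ran from 15 to 42 higher, with 15 without Dnmt1KO replicate 1 and 25 without Dnmt1KO replicate 2 or WT replicate 3, and from 0 to 17 lower, with 17 without Dnmt1KO replicate 3. Same-numbered libraries deviated with correlations of -0.0027, -0.18 and 0.31, and 2 of 6 correlated best with their own number, so the block was not taken as a pairing. By Spearman's rho, 3 of the 5 genes most like Tuba3a and 2 of the 5 most like Tuba3b were among the 9 and 19 genes tied at a rho of 1. The causes were not tested. The 4 pathway lists and the neighbours gave 0 calls under every alternative run. The smallest gene total was 60 reads, so genes with fewer reads were not analysed here.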
